A study of Mus musculus with 8 samples.

Results

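The semaphorin, plexin, neuropilin, ephrin, Eph, slit, robo and netrin genes of the mouse were followed through 3 kinds of stem cell culture. They were taken by gene symbol, and the symbols were chosen with earlier results of these data known. Each gene was read from the probe set that is brightest on average over the arrays. The symbols chosen were Sema3 to Sema7, Plxna to Plxnd, Nrp1 and Nrp2, the Epha, Ephb, Efna and Efnb genes, Slit1 to Slit3, Robo1 to Robo4, and Ntn1, Ntn3, Ntn4 and Ntn5. This gave 63 of 18194 measured genes: 20 semaphorins, 9 plexins, 2 neuropilins, 13 Eph receptors, 8 ephrins, 3 slits, 4 robos and 4 netrins.

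The series used 8 1-colour Affymetrix arrays of biotin-labelled RNA. EB_PSC (2 arrays) are embryoid bodies, aggregates in which parthenogenetic stem cells differentiated over 15 days of culture. PSC (3 arrays) are the undifferentiated parthenogenetic stem cells, derived on day 6 from blastocysts of C57BL/6 oocytes that had been activated with strontium chloride and not fertilized, so that their genomes are maternal. ESC (3 arrays) are R1 embryonic stem cells, kept on mouse embryonic fibroblast (MEF) feeder layers in medium with leukemia inhibitory factor (LIF). A strain is given for PSC and EB_PSC and not for ESC, and a feeder layer is named only for ESC. All 3 groups are mixtures of the cells in a dish or an aggregate. A lower value can therefore mean fewer cells of a type or less RNA per cell, which cannot be told apart. The labels do not say whether arrays of a group are separate cultures, so the spread that the tests measure may be technical.

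Guidance molecules were first known for steering growing axons. Semaphorins are secreted or membrane-bound ligands of plexins, and most of the secreted class 3 proteins also need a neuropilin. Ephrins, tethered to the cell surface, bind Eph receptor tyrosine kinases on the neighbouring cell. Slits are secreted ligands of robos, and netrins attract or repel through receptors such as Dcc and the Unc5 proteins. The same molecules act in the heart and vessels, where Nrp1 is also a receptor for vascular endothelial growth factor and the Efnb2 ligand marks arterial endothelium.

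Values are deposited log2 RMA signals. Adjusted p-values come from limma over all 18194 genes, and called means an adjusted p under 0.05. Differences are in log2 units, ± the standard error of the fit. The median of all deposited values, 5.44, was used as the limit for dim probe sets. A difference that involves a group mean under this limit is to be read as a lower bound and is printed without a fold. This holds also where the text does not repeat it beside the gene, as for Plxnc1, Sema4a and Met. On the probe sets used, 50 of the 63 genes were above the limit in at least 1 group and 38 in every group. The remaining 13 were dim in all 3 groups on the probe set used: Epha3, Epha5, Epha6, Epha8, Ephb6, Ntn3, Robo2, Robo3, Robo4, Sema3b, Sema3d, Sema3g and Sema6b. A second probe set of Sema3d was above the limit in embryoid bodies. Where results are given without 1 EB_PSC array, the other is the only one of its group and is assumed to vary like the arrays of PSC and ESC.

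Promoter sequence from RefSeq (build GRCm38.p6) was available for 55 of the 63 genes, in 71 windows of 250 bases before to 50 bases after a transcript start. The windows of Nrp1, Sema3c, Efna5 and Slit2, which on the probe sets used led the rises among neuropilins, semaphorins, ephrins and slits, and of Sema4g, which had the largest such fall among genes with a single window, are shown because the results below turn on their transcripts. They lie at chr8:128358823-128359122 (Nrp1, plus strand), chr5:17574566-17574865 (Sema3c, plus), chr17:62881268-62881567 (Efna5, minus), chr5:47982905-47983204 (Slit2, plus) and chr19:44989094-44989393 (Sema4g, plus). Each is written 5′ to 3′ on the strand of its gene. Capitals mark matches to the GC box letters GGGCGG on either strand (CCGCCC on the opposite strand) and, in Slit2, to the TATA box letters TATAAA.
Nrp1: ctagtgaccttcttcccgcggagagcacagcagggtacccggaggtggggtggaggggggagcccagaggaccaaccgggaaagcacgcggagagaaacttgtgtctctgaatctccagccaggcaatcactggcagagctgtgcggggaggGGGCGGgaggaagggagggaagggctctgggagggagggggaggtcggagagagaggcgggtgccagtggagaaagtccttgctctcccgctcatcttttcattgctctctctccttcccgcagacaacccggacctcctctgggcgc
Sema3c: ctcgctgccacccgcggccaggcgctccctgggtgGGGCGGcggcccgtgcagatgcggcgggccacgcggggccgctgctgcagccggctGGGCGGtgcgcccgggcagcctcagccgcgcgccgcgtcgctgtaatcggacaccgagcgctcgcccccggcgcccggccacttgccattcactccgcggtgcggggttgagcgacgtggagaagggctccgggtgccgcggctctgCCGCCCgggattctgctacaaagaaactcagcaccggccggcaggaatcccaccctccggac
Efna5: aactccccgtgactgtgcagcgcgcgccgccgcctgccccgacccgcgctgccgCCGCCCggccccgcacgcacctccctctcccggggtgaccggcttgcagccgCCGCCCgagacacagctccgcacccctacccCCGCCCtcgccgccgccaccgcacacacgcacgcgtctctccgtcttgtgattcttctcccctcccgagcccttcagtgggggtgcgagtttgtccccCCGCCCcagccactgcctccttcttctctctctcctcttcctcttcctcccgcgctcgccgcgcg
Slit2: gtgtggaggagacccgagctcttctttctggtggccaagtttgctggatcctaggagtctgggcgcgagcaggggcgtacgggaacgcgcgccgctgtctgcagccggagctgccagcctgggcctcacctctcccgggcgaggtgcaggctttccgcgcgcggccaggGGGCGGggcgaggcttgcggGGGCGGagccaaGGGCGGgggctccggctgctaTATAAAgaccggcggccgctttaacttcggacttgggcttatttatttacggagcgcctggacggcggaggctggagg
Sema4g: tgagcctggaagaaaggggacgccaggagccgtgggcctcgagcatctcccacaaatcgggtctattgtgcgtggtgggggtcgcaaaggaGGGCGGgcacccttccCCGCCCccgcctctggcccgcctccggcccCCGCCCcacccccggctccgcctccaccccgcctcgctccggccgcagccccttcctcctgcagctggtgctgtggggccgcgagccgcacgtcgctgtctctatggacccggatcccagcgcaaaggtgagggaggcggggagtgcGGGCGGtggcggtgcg

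All 5 windows held GC box letters, once in Nrp1, 3 times each in Sema3c and Slit2, and 4 times each in Efna5 and Sema4g. Over all guidance gene windows 71.8% (51 of 71) held them, against 52.3% of 18110 windows of genes on the arrays. The share was 71% for genes higher in embryoid bodies, 70% for genes lower and 75% for genes not called, close to each other in all 3. The median GC content was 64% in guidance gene windows and 58.3% in those of genes on the arrays. TATAAA stood in 2.82% of guidance gene windows and 9.77% of windows of genes on the arrays. The E box letters CACGTG were in 7.04% and 8.72%, and the octamer letters ATGCAAAT, also searched on both strands, in 0 of 71 and 1.39%. None of these strings contains another. A match is a description of the letters, not evidence of a factor bound there.

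The first comparison asked which guidance genes change as PSC differentiate in embryoid bodies. The transcript of Nrp1 rose most, from a probe set near the bottom of the scale in PSC, followed, on the probe sets used, by the ligands Sema3c, Sema6d, Efna5 and Efnb2. That order depends on the probe set: others gave 4.15 for Epha4 and 3.63 for Sema3d, and with the mean of all probe sets the rise of Sema6d was 0.72. Most class 3 semaphorins and ephrins and Slit2 rose, whereas Ntn1, Sema4d and most other class 4 semaphorins fell. Robo1, a receptor of Slit2, rose on the probe set used (1.32), but its others gave 0.01 and -0.55. Its call was lost when probe sets were averaged. In all, 38 of the 63 genes were called (60.3%), against 43.9% of all genes. They were 25 higher and 13 lower genes, where 18.8% of all genes were higher and 25.2% lower. The median difference was 0.07 over the guidance genes and -0.09 over all genes. At least 2-fold differences were called higher for 17 guidance genes (8.56% of all genes) and lower for 3 (7.42% of all genes). The arrays of the 2 groups did not overlap for 48 guidance genes, 27 above and 21 below, against 62.8% of all genes, 25.1% above and 37.8% below.

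**Figure D1:**
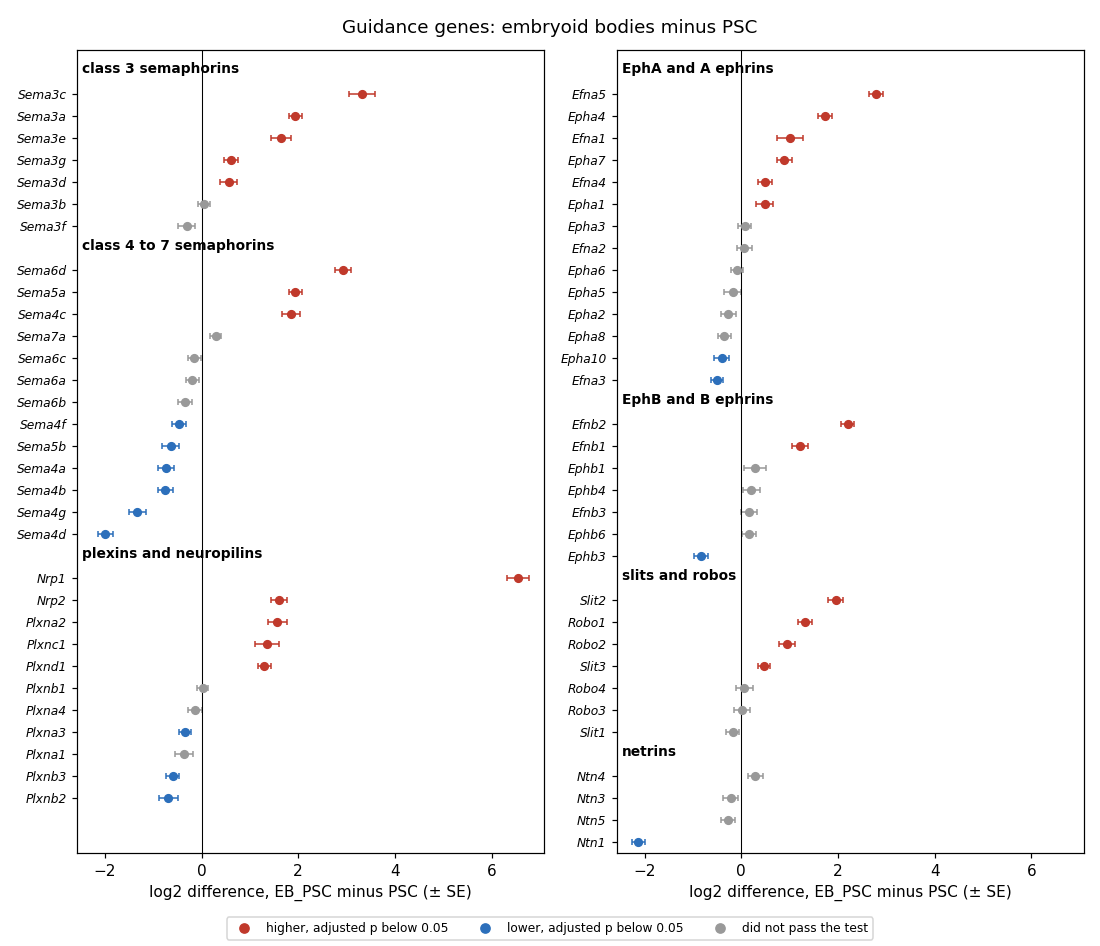
Log2 difference of every guidance gene between embryoid bodies and PSC (EB_PSC minus PSC; n = 2 and 3 arrays), grouped by role; bars are the standard error of the fit and colours give the call. Nrp1 stands apart at 6.55, the class 3 semaphorins and slits and robos hold no called fall, and Ntn1 has the largest fall on the probe sets used, at -2.13.

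Secreted class 3 semaphorins, most of which signal through a neuropilin paired with a plexin, were higher in embryoid bodies for 5 of 7 genes and lower for 0. Sema3c, required in the mouse for division of the cardiac outflow tract, was at 7.24 and 8.25 in EB_PSC, against 4.65, 4.14 and 4.50 in PSC. Its EB_PSC arrays differed from each other, yet both were far above PSC, and the rise was 3.31 ± 0.27 (adjusted p = 3.39e-07), a lower bound. Sema3a, the classical collapse factor of sensory growth cones, was at 6.28 and 6.16 in EB_PSC and at 4.46, 4.11 and 4.26 in PSC. It rose by 1.94 ± 0.13 (adjusted p = 6.21e-08), also a lower bound. Sema3e, which signals through Plxnd1 without a neuropilin, was already above the dim limit in PSC: 8.35 and 7.61 in EB_PSC, against 6.42, 6.06 and 6.54 in PSC. Its rise was 3.12-fold (1.64 ± 0.20, adjusted p = 1.5e-05). Sema3g was dim in both groups, at 5.25 and 5.46 in EB_PSC and 4.88, 4.75 and 4.59 in PSC, and rose by 0.61 ± 0.14 (adjusted p = 0.00214). Sema3d, likewise dim on the probe set used, rose by 0.56 ± 0.18 (adjusted p = 0.0243). Sema3b and Sema3f were not called, at 0.05 and -0.31. With the mean of all probe sets the rise of Sema3c was 2.08, and that of Sema3d was 2.10. The call of Sema3d was lost without EB_PSC 2 (0.18, adjusted p = 0.425), PSC 1 (0.0541) or PSC 3 (0.0801); over all alternatives the adjusted p ran between 2.21e-05 and 0.425, and its rise was 0.94 without EB_PSC 1.

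Of the receptors of these ligands, both neuropilins and 3 of 9 plexins were higher and 3 plexins lower. Nrp1, the co-receptor that binds Sema3a, was at 10.91 and 10.92 in EB_PSC, against 4.84, 3.91 and 4.34 in PSC. The EB_PSC arrays were nearly equal and lay over 6 log2 units above the highest PSC array. The rise of 6.55 ± 0.23 (adjusted p = 7.3e-11) is a lower bound, and its 4 probe sets gave 6.55, 5.66, 4.88 and 2.69. Nrp2, the main co-receptor for Sema3f, was well expressed in both groups, at 9.07 and 8.76 in EB_PSC and 7.0, 7.34 and 7.62 in PSC, and rose 3.03-fold (1.60 ± 0.17, adjusted p = 4.32e-06). Plxna2, a signalling partner of the neuropilins, was at 7.66 and 6.97 in EB_PSC and 5.98, 5.68 and 5.58 in PSC. Its rise was 2.97-fold (1.57 ± 0.19, adjusted p = 1.33e-05). Plxnd1, a receptor of vessels and of the outflow tract, rose 2.46-fold (1.30 ± 0.13, adjusted p = 3.64e-06). Plxnc1, the receptor of Sema7a, was at 4.99 and 6.12 in EB_PSC and 4.39, 4.03 and 4.20 in PSC, so that 1 of the 2 EB_PSC arrays carried most of its rise of 1.35 ± 0.25 (adjusted p = 0.000671). Without EB_PSC 2 that rise was 0.78, and with the mean of all probe sets it was 0.64, and 1.06 for Nrp2.

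The falling plexins were Plxnb2 (-0.69 ± 0.20, adjusted p = 0.0116), Plxnb3 (-0.60 ± 0.13, 0.0015) and Plxna3 (-0.34 ± 0.13, 0.0497), and each lost its call under some alternative. Plxnb2 lost it without EB_PSC 2 (-0.58, adjusted p = 0.0941; range over the alternatives from 0.0015). Plxnb3 was read from an _s_at probe set, whose probes can match other transcripts, and without such probe sets it was at -0.05 (adjusted p = 0.787; range from 0.00127). Plxna3 was at the threshold and lost its call with cyclic loess, with averaged probe sets, without _x_at and _s_at probe sets, with only the compared groups, with a trended and robust prior, and without any PSC array, EB_PSC 2 (-0.21) or ESC 3, at adjusted p of 0.0505 to 0.326 in a range from 0.0352. Plxna1, Plxna4 and Plxnb1 were not called, with differences of -0.36, -0.14 and 0.02, although Plxna1 passed with only the compared groups (adjusted p = 0.0259) and without ESC 1 (0.0258; range up to 0.402).

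Membrane-bound semaphorins of classes 4 to 7 moved in both directions, 3 of 13 higher, 6 lower and 4 not called. Sema6d, which has roles in the developing heart of chick and mouse, was at 7.62 and 7.36 in EB_PSC, against 4.82, 4.21 and 4.64 in PSC. It rose by 2.93 ± 0.17 (adjusted p = 1.07e-08), a lower bound. Sema5a, a thrombospondin-repeat semaphorin, was at 6.13 and 6.14 in EB_PSC and 4.15, 4.07 and 4.35 in PSC, a rise of 1.94 ± 0.13 (adjusted p = 4.25e-08) that is a lower bound too. Sema4c, a ligand of Plxnb2, was at 7.77 and 7.06 in EB_PSC and 5.62, 5.72 and 5.37 in PSC, and rose 3.60-fold (1.85 ± 0.19, adjusted p = 3.87e-06). In none of the 3 did the groups overlap. Averaged over all probe sets the rise was 0.72 for Sema6d and 0.59 for Sema5a, both still called.

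On the probe sets used the falls were led by Sema4d, a ligand of Plxnb1, at 6.72 and 6.70 in EB_PSC, against 8.68, 8.71 and 8.72 in PSC. The arrays of each group lay within 0.04 units of each other, and the gene was 3.98-fold lower (-1.99 ± 0.16, adjusted p = 3.31e-07). Sema4g fell by 1.33 ± 0.18 (adjusted p = 4.9e-05) to below the dim limit, a lower bound. Sema4b was 1.68-fold lower (-0.75 ± 0.16, 0.00191), Sema4a differed by -0.74 ± 0.17 (0.00309), Sema5b by -0.64 ± 0.17 (0.00615) and Sema4f by -0.47 ± 0.14 (0.0143). Of the 6 Sema4 genes measured, Sema4c alone was higher and the other 5 were lower. Sema6a, Sema6b, Sema6c and Sema7a were not called, with differences between -0.34 and 0.29. Sema6b passed with averaged probe sets (adjusted p = 0.0459) and without EB_PSC 1 (0.0352; range up to 0.42), and Sema7a with cyclic loess (0.0139; range up to 0.313). Averaged over all probe sets the difference was -0.81 for Sema4d and -1.36 for Sema4f. Without EB_PSC 2 the calls of Sema4a (-0.46, adjusted p = 0.0672, range from 0.000564) and Sema5b (-0.52, 0.0706, range from 0.000797) were lost, and Sema4f lost its call with cyclic loess (-0.32, 0.0791, range from 2.22e-06) and without EB_PSC 1 (0.0724) or PSC 2 (0.0539).

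**Figure D2:**
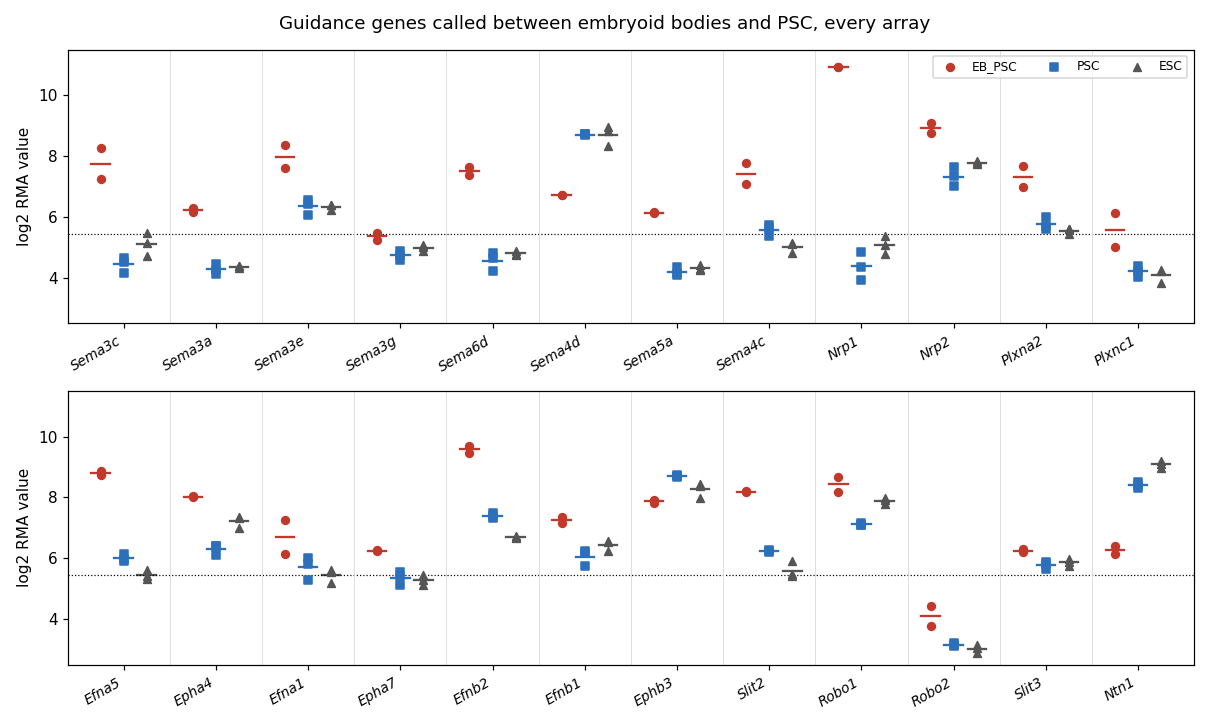
Deposited log2 RMA value on each array for the guidance genes described array by array in embryoid bodies (EB_PSC, circles), PSC (squares) and ESC (triangles); short lines are group means and the dotted line is the dim limit of 5.44. Nrp1 lies at 10.91 and 10.92 in EB_PSC and below the limit on every PSC and ESC array, whereas Sema4d, Ephb3 and Ntn1 are lower in EB_PSC than on every PSC array.

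Of 8 ephrins 5 were higher in embryoid bodies and 1 lower, and of 13 Eph receptors 3 were higher and 2 lower; the difference between these shares was not tested. Efna5, a repellent in the retinotectal map, was at 8.72 and 8.87 in EB_PSC, against 5.98, 6.15 and 5.89 in PSC. It rose 6.92-fold (2.79 ± 0.14, adjusted p = 2.36e-09). Efna1, an ephrin induced by tumour necrosis factor in endothelium, was at 6.14 and 7.24 in EB_PSC and 5.28, 5.99 and 5.81 in PSC, and its lower EB_PSC array exceeded the highest PSC array by only a small margin. Its rise was 2.00-fold (1.00 ± 0.27, adjusted p = 0.00902) and rested on EB_PSC 2, without which it was 0.45 (adjusted p = 0.187; range from 0.000206), while without EB_PSC 1 it was 1.55. Efna4 rose by 0.49 ± 0.15 (0.0134) and Efna3 fell by 0.50 ± 0.13 (0.00647). Efna4 lost its call without PSC 1 (0.0557), EB_PSC 1 (0.0544) or EB_PSC 2 (0.061; range from 0.00149), and Efna3 without EB_PSC 1 (0.0714; range from 0.00502). The rise of Efna5 was 1.32 with the mean of all probe sets.

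Epha4, a receptor that binds ephrins of both classes, was at 8.05 and 8.00 in EB_PSC, against 6.39, 6.10 and 6.41 in PSC. The groups were far apart, and the rise was 3.32-fold (1.73 ± 0.15, adjusted p = 5.51e-07). Epha7, which has a role in neural tube closure in the mouse, was at 6.22 and 6.27 in EB_PSC and 5.12, 5.40 and 5.53 in PSC, on both sides of the dim limit. Its rise of 0.89 ± 0.15 (adjusted p = 0.000222) is a lower bound. Epha1 rose by 0.48 ± 0.18 (0.0431) and Epha10 fell by 0.41 ± 0.15 (0.0365). The call of Epha1 was lost with the mean of all probe sets (0.15, adjusted p = 0.282) and without any PSC array, either EB_PSC array or ESC 3 (0.0572 to 0.133; range over the alternatives 0.00706 to 0.282). The call of Epha10 did not survive a second quantile normalization (0.0584), cyclic loess (0.186), or leaving out any PSC array (0.0533 to 0.113), EB_PSC 1 (-0.22, 0.368) or ESC 3 (0.0519), in a range of 0.0129 to 0.368. Efna2, Epha2, Epha3, Epha5, Epha6 and Epha8 were not called, with differences between -0.35 and 0.07, and the last 4 were dim in every group. Epha3 passed with averaged probe sets (0.50, adjusted p = 0.00178; range up to 0.943). Epha8 passed with a second quantile normalization, with averaged probe sets, with only the compared groups and without EB_PSC 2 or ESC 2 (0.0337 to 0.0433; range up to 0.357).

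In the B class, 2 of 3 ligands rose and 1 of the 4 receptors measured here fell. Efnb2, which signals to Ephb4 between arteries and veins, was at 9.70 and 9.47 in EB_PSC, against 7.49, 7.31 and 7.37 in PSC, and rose 4.6-fold (2.20 ± 0.13, adjusted p = 1.1e-08). Efnb1, an X-linked ephrin of the neural crest and skeleton, was at 7.35 and 7.17 in EB_PSC and 6.23, 5.75 and 6.16 in PSC, a 2.32-fold rise (1.21 ± 0.16, adjusted p = 3.88e-05). Ephb3, known from the crypt base of the intestine, was at 7.82 and 7.92 in EB_PSC, against 8.69, 8.75 and 8.67 in PSC. It was 1.78-fold lower (-0.83 ± 0.15, adjusted p = 0.000403), with no overlap. Ephb1, Ephb4, Ephb6 and Efnb3 were not called, with differences of 0.16 to 0.28. The rise of Efnb2 was 1.41 with the mean of all probe sets.

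Slits and robos were higher for 4 of 7 genes and lower for 0. Slit2, a midline repellent that is cleaved after secretion, was at 8.20 and 8.18 in EB_PSC, against 6.25, 6.26 and 6.20 in PSC. Arrays within a group were nearly equal, and the rise was 3.86-fold (1.95 ± 0.15, adjusted p = 1.61e-07). Slit3, whose loss causes diaphragmatic hernia in the mouse, was at 6.29 and 6.21 in EB_PSC and 5.65, 5.87 and 5.82 in PSC, a 1.38-fold rise (0.47 ± 0.13, adjusted p = 0.00906). Robo1, a receptor of both ligands, was at 8.68 and 8.18 in EB_PSC and 7.10, 7.09 and 7.14 in PSC. It rose 2.5-fold (1.32 ± 0.15, adjusted p = 7.5e-06) on the probe set used. Robo2, its paralog, was dim throughout, at 4.43 and 3.77 in EB_PSC and 3.10, 3.21 and 3.13 in PSC, and rose by 0.95 ± 0.17 (adjusted p = 0.000451), or by 0.63 without EB_PSC 1. Slit1, Robo3 and Robo4 were not called (-0.18, 0.01 and 0.06). The call of Robo1 was lost with averaged probe sets (0.26, adjusted p = 0.0614; range from 2.28e-06), that of Slit3 was lost without EB_PSC 1 (0.0604; range from 0.00182), and the rise of Slit2 was 1.00 with the mean.

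Netrins were lower for 1 of 4 genes and higher for 0. Ntn1, the floor plate attractant of commissural axons, was at 6.41 and 6.13 in EB_PSC, against 8.30, 8.50 and 8.40 in PSC. It was 4.38-fold lower (-2.13 ± 0.14, adjusted p = 3.36e-08), further than any other guidance gene on the probe sets used. With the mean of all probe sets Ntn1 was at -1.19 and Sema4f at -1.36. Ntn3, Ntn4 and Ntn5 were not called, at -0.22, 0.29 and -0.28, although Ntn4 passed with averaged probe sets (1.29, adjusted p = 2.88e-06) and with cyclic loess (0.41, 0.0423), in a range of 2.88e-06 to 0.305. Of 15 netrin receptors and relatives outside the symbols chosen, 6 were higher and 0 lower (40% called, against 43.9% of all genes). They were led by Flrt3, a fibronectin and leucine-rich repeat protein that binds Unc5 receptors (3.61 ± 0.15, adjusted p = 4.55e-10), by the repulsive netrin receptor Unc5b (2.35 ± 0.13, 5.9e-09) and by Flrt2 (1.92 ± 0.15, 2.75e-07, a lower bound). Dcc, the attractive netrin receptor, was at 6.28 and 6.64 in EB_PSC and 6.75, 6.70 and 6.62 in PSC and was not called (-0.23, 0.197).

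Downstream of the receptors, 21 of 55 measured signal transducers were higher in embryoid bodies and 7 lower, 50.9% called against 43.9% of all genes. Among those that rose was Adam10, a protease that sheds ephrins, with a log2 difference of 2.21 ± 0.17 (SE, limma adjusted p = 2.01e-07). Of 21 co-receptors and modifiers, 11 were higher and 1 lower (57.1% called), led by Met (2.90), which associates with B plexins, Ncam1 (2.68) and Kdr (2.48), the vascular endothelial growth factor receptor that works with Nrp1. The median difference was 0.20 over the transducers and 0.47 over the co-receptors, against -0.09 over all genes.

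Markers of several cell types were read on the same arrays, on which 18.8% of all genes were higher and 25.2% lower. Of 10 fibroblast markers 8 were higher in embryoid bodies and 1 lower, with a mean level over the list of 8.94 to 9.44 in EB_PSC and 5.74 to 5.95 in PSC. For 10 cardiomyocyte markers the counts were 9 and 0 (mean 8.19 to 8.85 in EB_PSC, against 4.97 to 5.04 in PSC), for 10 endothelial markers 7 and 1 (6.35 to 6.58, against 5.42 to 5.55), for 6 smooth muscle markers 4 and 0, for 8 endoderm markers 6 and 0 and for 7 blood markers 5 and 1. Pluripotency markers were lower for 10 of 10 (9.50 to 9.63 in EB_PSC, against 11.60 to 11.77 in PSC). Neuron markers were higher for 3 of 12 and lower for 6 (mean 5.89 to 6.11 in EB_PSC, against 6.06 to 6.17 in PSC), and neural progenitor markers were higher for 4 of 9 and lower for 0. Of the 9 neural progenitor markers 5 were dim in every group, and so were 5 of the 12 neuron markers: Map2, Dcx, Elavl4, Snap25 and Nefm. Among these neuron markers, Map2 and Elavl4 were called lower and Nefm was called higher. Gap43, a growth cone protein, had the largest rise of that list, 2.87 ± 0.23 (adjusted p = 2.98e-07). Ina had its largest fall, -2.37 ± 0.18 (adjusted p = 1.86e-07). Of 5 neural crest markers 1 was higher and 1 lower. The share called was 44.4% for neural progenitor and 40% for neural crest markers, near the 43.9% of all genes. The part of these cell types in the changes of the guidance genes was not tested.

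Several guidance genes are read by more than 1 probe set, and these did not always move alike. The 63 genes have 142 probe sets that name 1 gene, and 21 genes have a single probe set. Of the 38 genes called between embryoid bodies and PSC, 28 have several. For 20 of the 28 all probe sets differed in the same direction, and for 8 they did not: Efna5, Epha1, Nrp2, Plxnc1, Robo1, Sema4d, Sema5a and Sema6d. The second probe set of Efna5 was dim in both groups (3.76 in EB_PSC and 3.91 in PSC), and the 3 others of Sema6d were at 4.11 to 4.80 with differences of -0.12 to 0.14. For Robo1, the other probe sets gave 0.01 and -0.55. Some genes had a larger difference on a probe set that was not used, because its mean over all arrays was lower. For Sema3d such a probe set was at 6.84 in EB_PSC and 3.21 in PSC, a difference of 3.63. For Epha4 another gave 4.15 (8.35 in EB_PSC and 4.20 in PSC), for Epha7 2.97 (7.33 and 4.35), for Ntn4 2.29 (6.14 and 3.85), for Epha3 1.37 (4.55 and 3.18) and for Sema4f -2.25 (4.43 and 6.68). These values carry no test of their own. When probe sets were averaged instead, the difference was smaller by over 1.5 times for 13 of the 28 genes and larger for 2, and 3 calls were lost (Epha1, Plxna3 and Robo1).

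**Figure D3:**
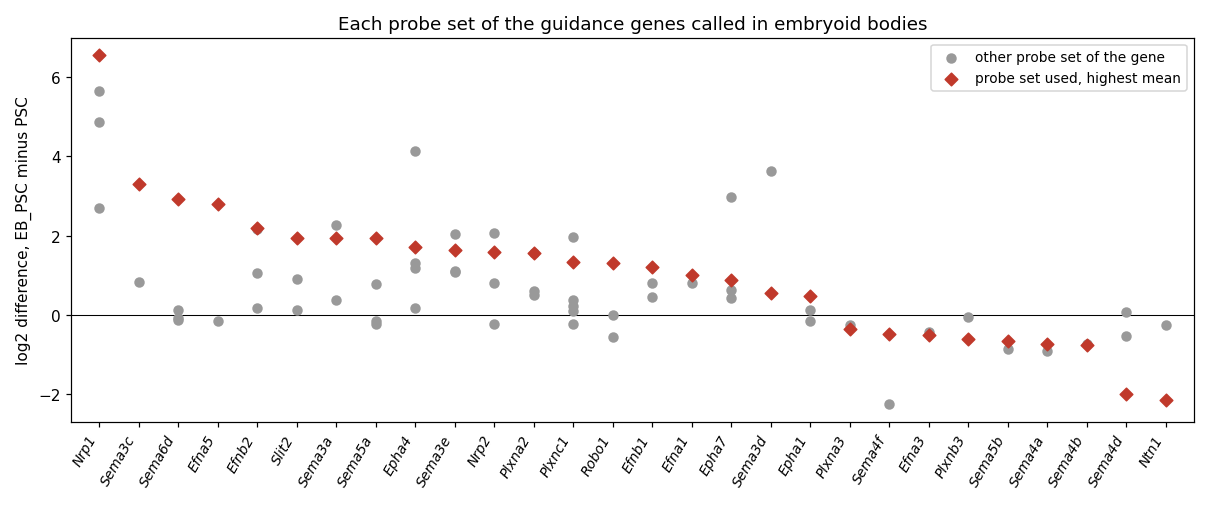
Log2 difference between embryoid bodies and PSC (EB_PSC minus PSC) on every probe set of the 28 called guidance genes that have several; diamonds are the probe set used, with the highest mean, and circles the others. All 4 probe sets of Nrp1 lie between 2.69 and 6.55, whereas those of Robo1, Sema5a and Sema6d lie on both sides of 0 and Sema3d reaches 3.63 on a probe set not used.

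The second comparison asked how undifferentiated PSC and ESC differ. Differences were small on the probe sets used. Of 63 guidance genes 15 were called (23.8%), against 20.8% of all genes, with 8 higher in PSC (9.07% of all genes) and 7 lower (11.7% of all genes). On these probe sets 0 of them reached 2-fold, whereas another probe set of Epha4 gave -2.00. The share called is near that of all genes. The median difference was 0.02 over the guidance genes and 0.01 over all genes, and the arrays did not overlap for 22 guidance genes, 12 above and 10 below (36.5% of all genes, 17.4% above and 19.1% below). PSC and ESC differ in line and in the origin of the genome and may differ in strain and feeder layer, which cannot be told apart here. Of 10 fibroblast and feeder markers, 7 were lower in PSC (11.7% of all genes) and 0 higher (9.07% of all genes). Their mean over the list was 5.74 to 5.95 in PSC and 6.60 to 7.0 in ESC. Their part in the differences below was not tested.

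**Figure D4:**
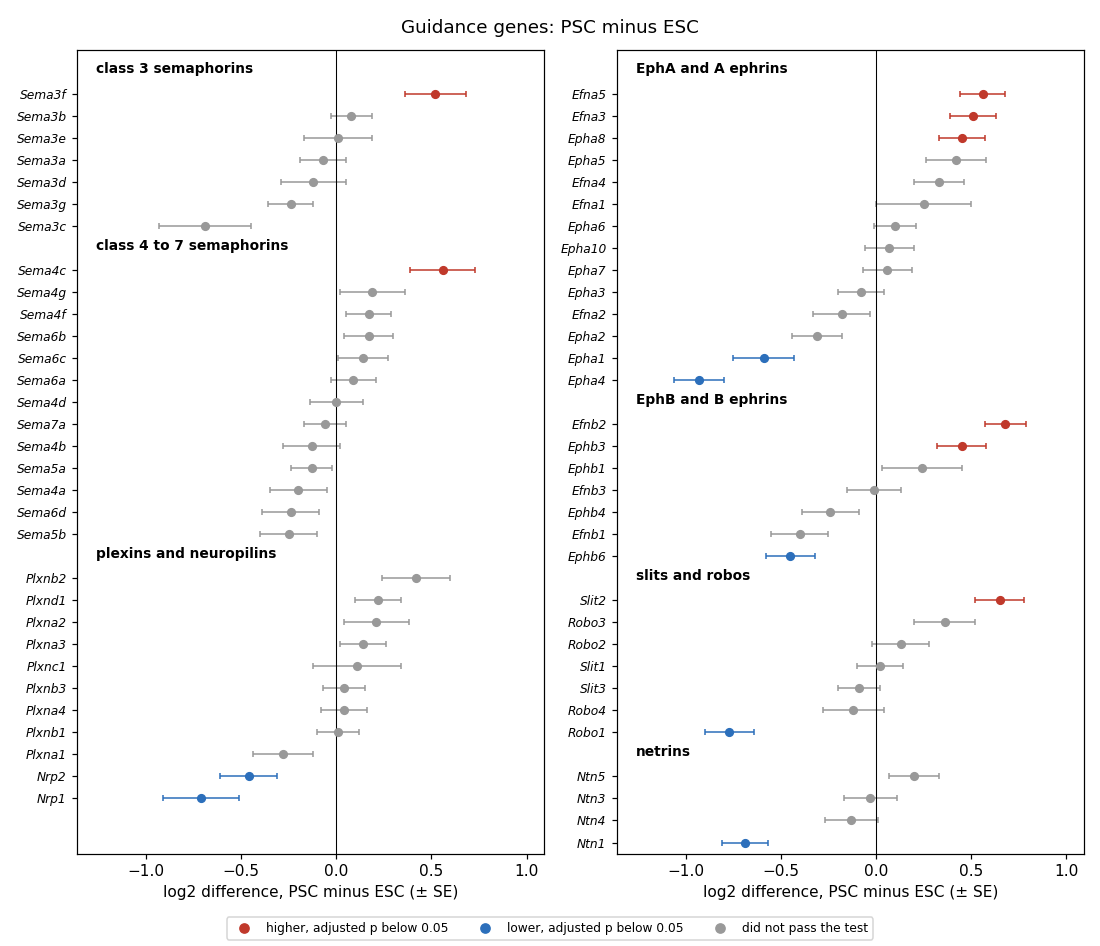
Log2 difference of every guidance gene between PSC and ESC (PSC minus ESC; n = 3 arrays each), grouped by role; bars are the standard error of the fit and colours give the call. On the probe sets used, all differences lie between -0.93 (Epha4) and 0.68 (Efnb2), and no plexin was called.

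Among Eph receptors and ephrins, Epha4 was at 6.39, 6.10 and 6.41 in PSC, against 7.36, 7.33 and 7.0 in ESC. It was 1.91-fold lower in PSC (-0.93 ± 0.13, adjusted p = 0.000268), and the probe set of Epha4 that moved most in embryoid bodies gave -2.00 here. Efna3, a lipid-anchored ligand of EphA receptors, was at 7.69, 7.79 and 7.66 in PSC and 7.17, 7.09 and 7.34 in ESC, a 1.43-fold higher level (0.51 ± 0.12, adjusted p = 0.00678). Efnb2 was at 7.49, 7.31 and 7.37 in PSC, against 6.67, 6.71 and 6.74 in ESC, and was 1.60-fold higher (0.68 ± 0.11, adjusted p = 0.000897). Efna5 was at 5.98, 6.15 and 5.89 in PSC and 5.32, 5.40 and 5.62 in ESC, close to the dim limit, and was 1.47-fold higher (0.56 ± 0.12, adjusted p = 0.0059). Ephb3 was at 8.69, 8.75 and 8.67 in PSC and 8.36, 7.97 and 8.45 in ESC (0.45 ± 0.13, adjusted p = 0.0291). In each of these the PSC arrays lay on 1 side of all ESC arrays. With the mean of all probe sets Efnb2 was at 0.21 (adjusted p = 0.137; range from 0.000426) and Efna5 at 0.29 (0.0747; range from 0.00407), so both calls were lost. The call of Ephb3 was lost without any PSC array or ESC 2 (0.30), with adjusted p between 0.0639 and 0.0986 and a range from 0.00631.

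Epha1, the first Eph receptor to be cloned, was at 5.94, 5.95 and 5.78 in PSC, against 6.89, 6.16 and 6.37 in ESC, and fell 1.5-fold (-0.59 ± 0.16, adjusted p = 0.02). Without ESC 1, the highest array, it was at -0.38 (0.0667), and the call was also lost without any PSC array (0.0541 to 0.0758) and with the mean of all probe sets (-0.25, 0.104; range from 0.00419). Ephb6, a receptor without kinase activity, was at 3.40, 3.43 and 3.70 in PSC and 4.07, 3.91 and 3.90 in ESC, dim on every array (-0.45 ± 0.13, adjusted p = 0.0221). Epha8, also dim, was higher in PSC (0.45 ± 0.12, 0.0179). Ephb6 lost its call without PSC 1, PSC 2 or ESC 1 (0.0791 to 0.0978; range from 0.0135) and Epha8 without PSC 1, PSC 2 or ESC 3 (0.0594 to 0.0898; range from 0.0122).

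Ntn1 was at 8.30, 8.50 and 8.40 in PSC, against 9.10, 8.97 and 9.20 in ESC, and was 1.62-fold lower in PSC (-0.69 ± 0.12, adjusted p = 0.00137). Slit2 was at 6.25, 6.26 and 6.20 in PSC and 5.47, 5.89 and 5.42 in ESC, a 1.57-fold higher level (0.65 ± 0.13, adjusted p = 0.00335). Its receptor gene Robo1 lay the other way, at 7.10, 7.09 and 7.14 in PSC and 7.90, 7.97 and 7.79 in ESC (-0.77 ± 0.13, adjusted p = 0.00109). With the mean of all probe sets Slit2 was at 0.31, still called, whereas Robo1 was at -0.08 (0.596; range from 0.000337). Epha4, Efna3, Ntn1 and Slit2 were the 4 of 15 genes whose call held in all alternatives other than the threshold of 2-fold. On the probe sets used, none of them reached that threshold.

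Both neuropilins were called lower in PSC on the probe sets used. The other probe sets gave -0.77, 0.0 and 0.05 for Nrp1 and -0.62, 0.09 and -0.57 for Nrp2. Between PSC and ESC, 11 called genes have several probe sets. For 5 of them these differed in sign: Efnb2, Nrp1, Nrp2, Robo1 and Sema3f. Nrp2 was at 7.0, 7.34 and 7.62 in PSC, against 7.78, 7.83 and 7.73 in ESC (-0.46 ± 0.15, adjusted p = 0.0461). Nrp1 was dim, at 4.84, 3.91 and 4.34 in PSC and 5.08, 5.36 and 4.78 in ESC, so that the highest PSC array exceeded the lowest ESC array, and differed by -0.71 ± 0.20 (adjusted p = 0.0242). Nrp2 lost its call with either other normalization (0.0746 and 0.0721) and without PSC 1 (-0.30, 0.212), PSC 2 or any ESC array (0.0901 to 0.113), in a range from 0.0159. Nrp1 lost it on leaving out PSC 2 (-0.48, 0.122), PSC 3 (0.0695), ESC 1 (0.0613) or ESC 2 (0.0806; range from 0.00552), and was at -0.36 with the mean of its probe sets.

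Sema3f and Sema4c were the called semaphorins, both higher in PSC. Sema3f was at 9.92, 10.51 and 9.90 in PSC, against 9.54, 9.76 and 9.48 in ESC (0.52 ± 0.16, adjusted p = 0.0333), read from an _x_at identifier. Leaving those out, it was at -0.10 (0.686), a change of sign, and the averaged probe sets lost the call as well (0.12, 0.511), as did the fits without PSC 2 (0.32, 0.142), ESC 1 (0.0913) or ESC 3 (0.12), in a range from 0.0164. Sema4c was at 5.62, 5.72 and 5.37 in PSC and 4.80, 5.12 and 5.10 in ESC (0.56 ± 0.17, adjusted p = 0.0334), a lower bound that lost its call when PSC 1 (0.11), PSC 2 (0.136), ESC 1 (0.125) or ESC 3 (0.0627; range from 0.00961) was left out. The other 48 guidance genes were not called, with differences between -0.69 (Sema3c, adjusted p = 0.0598) and 0.42. Of these, 8 passed under some alternative: Efna2, Efna4, Efnb1, Plxnb2, Sema3c, Sema4a, Sema4f and Sema5b. Sema3c passed when dim genes were left out, after cyclic loess, in the fit of the compared groups alone and without either EB_PSC array or ESC 3 (0.0185 to 0.0482; range up to 0.234). Sema4a was at -0.74 without _x_at and _s_at probe sets (0.0123) and -0.47 with averaged ones (0.0243), against -0.20 as reported (range up to 0.789). Sema4f was at 0.45 with averaged probe sets (0.0111), against 0.17 (range up to 0.808).

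**Figure D5:**
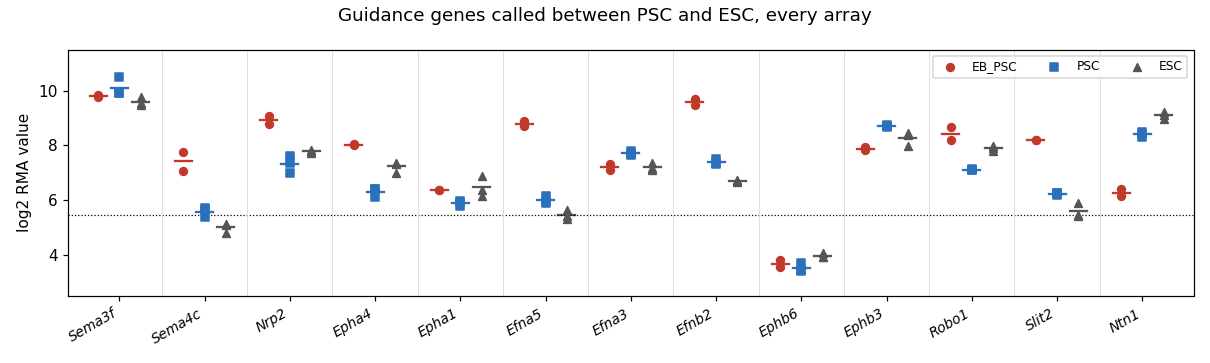
Deposited log2 RMA value on each array for the guidance genes described array by array between PSC (squares) and ESC (triangles), with embryoid bodies (EB_PSC, circles) beside them; short lines are group means and the dotted line is the dim limit of 5.44. Epha4 and Ntn1 lie lower on every PSC array than on any ESC array, and Efnb2 and Slit2 lie higher.

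Of the wider pathway, 1 of 15 netrin receptors and relatives was called (6.67%, against 20.8% of all genes), Neo1, a Dcc relative, at 8.86, 8.72 and 8.79 in PSC, against 7.73, 8.12 and 7.96 in ESC (0.85 ± 0.12, adjusted p = 0.000284). Among 55 signal transducers 3 were higher in PSC and 8 lower, so that 20% were called, no more than the 20.8% of all genes. The called ones were led by Dpysl3, a collapsin response mediator (-1.23 ± 0.12, adjusted p = 1.85e-05), Tiam1, a Rac exchange factor (-1.07 ± 0.17, 0.000604), and Gipc1, which binds the tail of Nrp1 (-0.84 ± 0.16, 0.0024). Of 21 co-receptors and modifiers 4 were higher and 4 lower (38.1% called), among them the heparan sulphate proteoglycan Sdc2 (0.84 ± 0.13, 0.000621), the integrin Itgb1 (-0.66 ± 0.13, 0.00273) and the heparan sulphate polymerase Ext1 (-0.63 ± 0.14, 0.00599).

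Set against ESC in place of PSC, embryoid bodies had 33 of 63 guidance genes called (44.9% of all genes), 23 higher (19.3% of all genes) and 10 lower (25.6% of all genes). At least 2-fold differences were called higher for 16 (8.81% of all genes) and lower for 3 (9.23% of all genes), and the arrays did not overlap for 42, 27 above and 15 below (61.1% of all genes, 25% above and 36.1% below). This comparison shares its arrays with both others, so its values are given beside theirs only. Nrp1 differed by 5.84 ± 0.23 from ESC and by 6.55 ± 0.23 from PSC. For Efna5 the differences were 3.35 from ESC and 2.79 from PSC, for Efnb2 2.88 and 2.20, for Sema6d 2.69 and 2.93, for Sema3c 2.62 and 3.31, for Slit2 2.60 and 1.95, and for Sema4c 2.41 and 1.85. Ntn1 was -2.82 from ESC and -2.13 from PSC, and Sema4d was -1.99 from each. With the mean of all probe sets the differences from ESC were smaller by over 1.5 times, at 1.61 for Efna5, 1.62 for Efnb2, 0.71 for Sema6d, 1.66 for Sema3c, 1.32 for Slit2, -1.85 for Ntn1 and -0.85 for Sema4d, and these calls remained. On the probe sets used, Epha4 lay only 0.80 above ESC, against 1.73 above PSC, and Robo1 0.55 against 1.32. The probe set of Epha4 that moved most gave 2.15 above ESC and 4.15 above PSC. Robo1 lost its call from ESC with averaged probe sets (0.18, adjusted p = 0.2; range from 0.000542) and without EB_PSC 1 (0.30, 0.155). Epha2 (-0.58) and Plxna1 (-0.64) were called lower than ESC and not lower than PSC (-0.27 and -0.36), but both lost that call with cyclic loess (Epha2 at 0.0698, range from 0.00402; Plxna1 at 0.0781, range from 0.00261) and without EB_PSC 1 (0.0569 and 0.0554), and Plxna1 also with the mean of its probe sets (0.0521).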

How the data were processed

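Total RNA of 8 mouse samples was hybridised to 1-colour Affymetrix arrays (labels' protocols). The deposited log2 values were made by the authors with RMA in Bioconductor, per the labels and the submitters' processing notes. Versions, and whether the arrays were normalized jointly, are not stated in these sources. Array medians lay between 5.39 and 5.47. RMA aligns the arrays, which hides any general shift of transcripts and shrinks differences between dim signals. Precision is limited by the number of arrays, above all the 2 of embryoid bodies. No further normalization was applied.

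Of 45101 probe sets, 34958 name 1 gene in the platform annotation, 932 several and 9211 none. Entrez identifiers matched 34754 to RefSeq GRCm38.p6, which changed 0 symbols. Each of 18194 genes was read from its single-gene probe set with the highest mean. Groups were compared with limma 3.58.1 in R 4.3.3, two-sided, with the 8 arrays in 1 model of group means (5 residual and 8.07 prior degrees of freedom), with Benjamini-Hochberg adjustment over all genes. The fit was tested on simulated data for embryoid bodies against PSC, PSC against ESC and embryoid bodies against ESC. It recovered 14.9%, 25.4% and 19.4% of changes of 0.5 log2 units, and 86.6%, 89.6% and 74.6% of changes of 1.0. Only 67 genes were changed at each of these sizes, far fewer than were called here, so these shares do not carry over directly. Python 3.11.15 made the summaries.

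Values of every array were printed for up to 4 called genes of each role group and comparison, by size of difference, among those whose arrays do not overlap; up to 3 genes were named of each pathway list, and 2 of the signal transducers it picked are not reported here. Other values were added after they were seen: the array values of Nrp1 between PSC and ESC, of Dcc and of single probe sets. So was the naming of Gap43, Ina, Map2, Dcx, Elavl4, Snap25 and Nefm. The guidance genes, the pathway and marker lists and the rule were chosen with earlier results of these data known. Alternatives were cyclic loess, another quantile normalization, the mean of a gene's probe sets, leaving out dim genes or _x_at and _s_at probe sets, fitting only the groups compared, a trended and robust prior, the replicate number as a block, a 2-fold threshold, and each array left out in turn.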

Additional observations from a re-analysis of the deposited data

How the results depend on the processing

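Between embryoid bodies and PSC, 24 of 38 called guidance genes kept their call in every alternative that gave a value, the threshold of 2-fold aside. Between PSC and ESC 4 of 15 did, and between embryoid bodies and ESC 26 of 33. Counting that threshold, 19, 0 and 19 did. With it the guidance genes called were 20, 0 and 19 in these 3 comparisons, and all genes called 2907, 550 and 3282. Leaving out each array in turn gave 31 to 39, 7 to 16 and 30 to 34 guidance genes, of 6687 to 8370, 2490 to 4142 and 6997 to 8304 genes. Between PSC and ESC the guidance genes called higher ran from 4 to 8 and lower from 3 to 8. The lowest counts came without PSC 1 (2490 genes, 1330 of them lower, in a range up to 2427; 4 guidance genes lower), PSC 2 (7 guidance genes, 4 higher and 3 lower), ESC 1 (3 lower) and ESC 3 (5 higher). Of 995 values per comparison over the single guidance genes and alternatives, 44, 38 and 29 lost a call and 14, 19 and 16 gained one, and 2 values with a call on either side changed sign: Sema3f between PSC and ESC without _x_at and _s_at probe sets (-0.10) and Epha3 between embryoid bodies and ESC with the mean of all probe sets (0.49, adjusted p = 0.0017, against -0.02; range 0.0017 to 0.987). Among values called neither way, 21, 33 and 34 changed sign. The cause was not tested. Cyclic loess turned the balance of all genes to 4232 higher and 3559 lower in embryoid bodies against PSC (3417 and 4578 as deposited) and 4519 and 3563 against ESC (3513 and 4652), while the guidance genes were 27 and 10, and 27 and 7. Between PSC and ESC cyclic loess gave 2029 higher and 1896 lower genes and a repeated quantile normalization 2086 and 1825 (1651 and 2131 as deposited). With the replicate number as a block, 36, 15 and 30 guidance genes and 7517, 3564 and 7693 genes were called in the 3 comparisons. It ended the calls of Epha1 (adjusted p = 0.0741), Epha10 (0.0597) and Plxna3 (0.0972) between embryoid bodies and PSC, of Nrp2 between PSC and ESC (0.0563), and of Ephb3 (0.115), Sema3g (0.1) and Slit3 (0.07) between embryoid bodies and ESC. It gave Epha8 (0.0478) and Efnb1 (0.0369) a call in the first and second of these. Such changes with the block are given here and are left out of the lists beside each gene. Deviations of same-numbered arrays from their group means correlated at r -0.25 to 0.22, against -0.22 to 0.21 for other pairs. With so few arrays in a group, the deviations within it are tied to each other. The check therefore cannot decide whether the numbers pair the arrays. The 13 genes dim in every group have no value with the filter on dim probe sets.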
